A study of Drosophila melanogaster with 14 samples.

Results

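The genes described here are salm, salr, bi, elB and noc, 5 transcription factor genes of the wing pouch, chosen by name. They are 5 of the 17807 genes in the count table, and all 5 had enough reads to be tested. The RNA came from wing imaginal discs, larval epithelia that give rise to the adult wing and the dorsal body wall, of wandering Drosophila melanogaster larvae of instar 3 raised at 25 degrees. The wildtype group was yw, and the mutant group was yw with nub[1], an allele of the POU domain gene nubbin, called nub1 here. Each group had 3 libraries, all of whole discs. The labels do not say whether libraries came from separate animals or crosses. P-values therefore measure the spread between these libraries alone, and part of it may be technical.

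The wing pouch is the central part of the disc that becomes the wing blade. The secreted BMP ligand Dpp spreads from a stripe in its middle, binds the receptors Thickveins and Punt, and acts through the Smad protein Mad, largely by turning off the repressor gene brk. Spalt major and Spalt-related, the zinc finger proteins of salm and salr, are made in a central domain set by this signal and place the wing veins. Optomotor-blind, the T-box protein of bi, is made in a wider domain under the same control. Elbow B and No ocelli, the zinc finger proteins of elB and noc, act with the corepressor Groucho and help to separate the appendage from the body wall.

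Total counts per library were between 58434785 and 83448836. Levels are given as CPM, a gene's counts scaled to the size of its library, with TMM factors to balance the libraries. The targeted gene nub went from 329 ± 12.2 to 10.9 ± 3.09 CPM in nub1 discs, and its neighbour pdm2 from 57.1 ± 0.394 to 0.107 ± 0.0426 CPM (SD, n = 3). The wing disc markers vg, sd, ap and wg were present in both groups at means of 89.2 to 598 CPM. Of the 5 eye disc markers, gl had no count in any library, and toy and ey were at most 0.00868 and 0.651 CPM in group means. The other two were present, eya at 33.2 and 17.5 CPM and so at 20.6 and 16.7 CPM in wildtype and nub1. Replicate 3 of nub1 stood apart from nub1 replicates 1 and 2, with 23.7 and 17.7 chi-square per degree of freedom against 3.23 between those 2. Among the wildtype libraries the same measure was 11.4 to 13.0. Across all 9186 tested genes, 24.4% were called higher and 23.9% lower in nub1 discs (edgeR quasi-likelihood test, Benjamini-Hochberg adjusted p under 0.05), which is the background for each count that follows. Among tested genes of at least 50 CPM, as all 5 genes are, these shares were 23.2% and 26.1%.

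Of the 5 genes, elB, noc, bi and salm rose in nub1 discs and salr fell. The changes were small: elB rose 1.33-fold, noc and bi rose 1.13-fold, salm rose 1.09-fold and salr fell to 0.854 of its wildtype level. The level of elB, noc, bi and salr did not overlap between the groups, while that of salm did. Of all tested genes, 29.7% lay higher and 30.3% lower without overlap. A test against a fold of 1.2 (glmTreat), which called 9.53% of all tested genes higher and 7.85% lower, called elB alone among the 5 (edgeR adjusted p = 0.00157). In whole discs, a change in the number of cells that make an RNA and a change in the RNA per cell cannot be told apart.

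**Figure D1:**
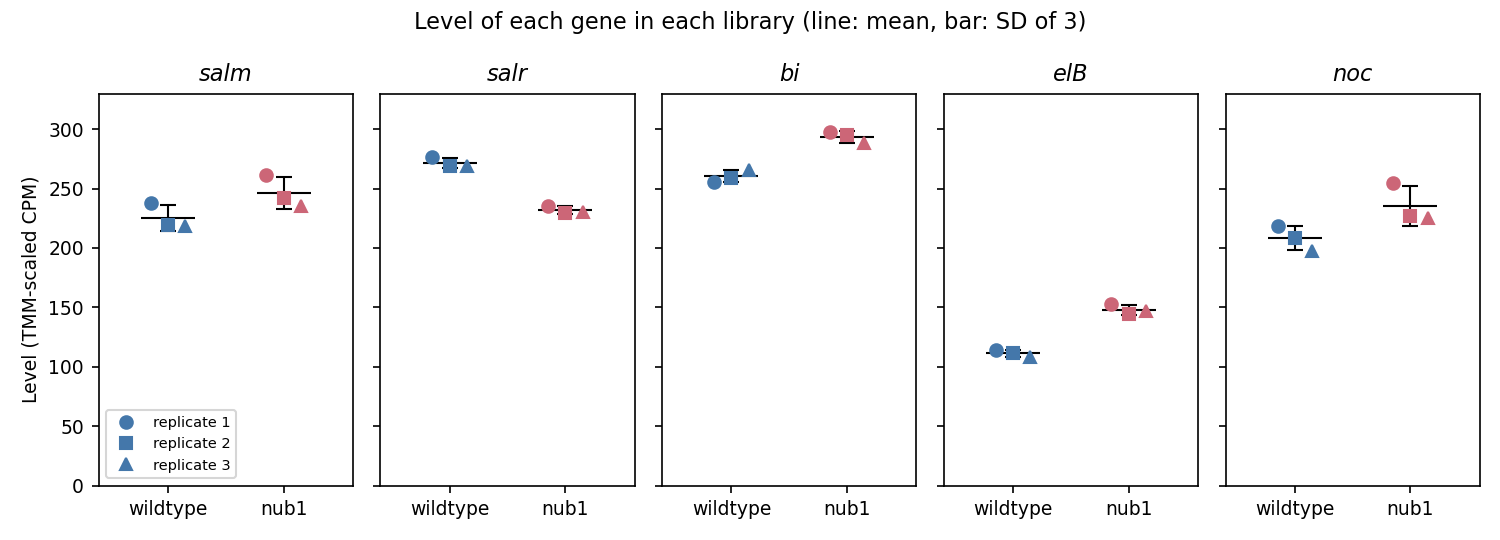
Level of each of the 5 genes in TMM-scaled CPM (vertical axis, from 0) in the 3 wildtype and 3 nub1 libraries, with the symbol giving the replicate, a line the group mean and a bar the SD of 3. The nub1 points lie above all wildtype points for bi, elB and noc and below them for salr, and for salm nub1 replicate 3 (235.5 CPM) lies under wildtype replicate 1 (238 CPM).

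The gene salm (FBgn0261648) lies on chromosome arm 2L of dm6, 11434311 to 11445614. Its level in replicates 1 to 3 was 238, 219 and 218 CPM for wildtype and 261, 242 and 235.5 CPM for nub1. In each group replicate 1 was the highest, and the lowest nub1 library was under the highest wildtype library. The log2 fold change was 0.13 ± 0.05 (SE; 95% interval 0.02 to 0.24; edgeR adjusted p = 0.0496). Leaving out wildtype replicate 2, wildtype replicate 3, nub1 replicate 1 or nub1 replicate 2 ended this call (adjusted p with edgeR of 0.157, 0.140, 0.146 and 0.0850), as did limma-voom, median-of-ratios scaling and a stricter filter on low counts (adjusted p = 0.0573, 0.0542 and 0.0552).

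Its paralog salr (FBgn0000287) lies on the same arm, 11358873 to 11373636, and went the other way. Replicates 1 to 3 held 277, 269 and 269 CPM for wildtype and 236, 230 and 231 CPM for nub1. Libraries within a group differed by few CPM, and all nub1 libraries were under all wildtype libraries. The log2 fold change was -0.23 ± 0.03 (SE; 95% interval -0.29 to -0.17; edgeR adjusted p = 0.000135). The fall was called whichever library was left out.

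The balance of the Spalt genes was also read as their ratio within each library, which does not depend on how libraries are scaled. It uses the same counts and would rise from the fall of salr alone, so it says nothing further on the direction of salm. Counts of salm per count of salr in replicates 1 to 3 were 0.859, 0.814 and 0.812 for wildtype and 1.11, 1.05 and 1.02 for nub1. Thus salr had more counts than salm in all 3 wildtype libraries and fewer in all 3 nub1 libraries. The ratio was 1.28-fold higher in nub1 discs (difference of log2 ratios 0.36; exact permutation test, two-sided, p = 0.10, the smallest that 3 against 3 libraries allow). No transcript lengths were used, so the ratio follows the balance of the genes between genotypes but does not say which has more RNA molecules. Opposite directions in neighbours were not rare: of 2298 pairs of adjacent tested genes with both called, 1000 (43.5%) changed in opposite directions. Adjacent called genes thus shared a direction more often than not. With 2239 genes called higher and 2195 lower, unrelated directions would give a nearly even split. Pairs of paralogs were not examined as a class.

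The T-box gene bi (FBgn0000179) lies on chromosome X, 4412856 to 4485647. In replicates 1 to 3 it held 256, 259 and 266 CPM for wildtype and 298, 295 and 288 CPM for nub1, with a gap between the groups wider than the spread inside either. The log2 fold change was 0.17 ± 0.03 (SE; 95% interval 0.11 to 0.24; edgeR adjusted p = 0.000891). Its span lies inside that of a long non-coding RNA gene, lncRNA:CR32773, whose mean was 1.94 CPM for wildtype and 1.79 CPM for nub1. Its counts were 113 to 168 per library, against 14816 to 24499 for bi. With a strand setting not given in the sources used here, it is unknown whether some reads were assigned to the wrong gene. The other 4 genes overlapped no gene of the table that has a position.

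The gene elB (FBgn0004858), on 2L from 14390628 to 14409549, had the largest change of the 5. In wildtype it held 114, 112 and 108 CPM and in nub1 153, 145 and 147 CPM, in the order of the replicate numbers. The gap between the groups was several times the spread of either. The log2 fold change was 0.41 ± 0.03 (SE; 95% interval 0.34 to 0.48; edgeR adjusted p = 1.46e-05). This change was higher than that of 87.6% of tested genes, or, by size in either direction, at percentile 75.04.

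Its paralog noc (FBgn0005771), on 2L from 14490859 to 14494019, also rose. Its values in the same order were 218, 209 and 198 CPM for wildtype and 255, 227 and 225 CPM for nub1. The groups did not overlap, but nub1 replicate 1 stood well above the other two nub1 libraries. The log2 fold change was 0.18 ± 0.06 (SE; 95% interval 0.05 to 0.31; edgeR adjusted p = 0.0310). It was no longer called once wildtype replicate 2, wildtype replicate 3 or nub1 replicate 1 was left out (adjusted p with edgeR of 0.0949, 0.0857 and 0.0561).

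Within libraries, counts of elB per count of noc were 0.522, 0.537 and 0.548 for wildtype and 0.599, 0.637 and 0.653 for nub1 replicates 1 to 3. All 3 nub1 ratios were above all wildtype ratios, so elB rose relative to noc. The ratio was 1.18-fold higher in nub1 discs (difference of log2 ratios 0.23; exact permutation test, two-sided, p = 0.10, again the smallest possible).

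**Figure D2:**
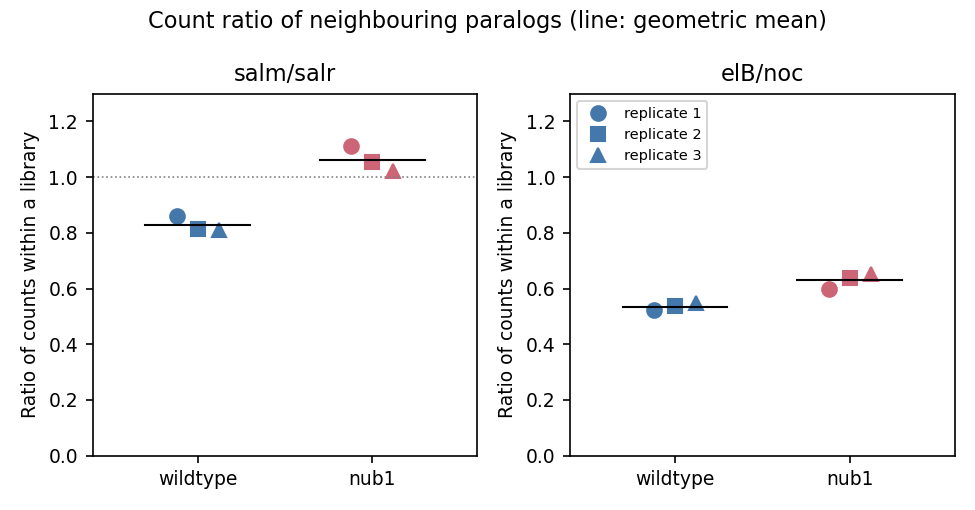
Ratio of counts of salm to salr (left) and elB to noc (right) within each library (vertical axes, no unit, from 0), with lines for the geometric mean of 3 libraries. The salm to salr ratio lies under 1 (dotted line) in wildtype, with a mean of 0.828, and above it in nub1, with a mean of 1.06, and the elB to noc ratio goes from 0.535 to 0.629.

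Without nub1 replicate 3, the library that stood apart, all 5 genes kept their direction and call. The log2 fold changes were then 0.16 for salm, -0.22 for salr, 0.19 for bi, 0.42 for elB and 0.21 for noc (edgeR adjusted p = 0.0242, 0.000385, 0.00102, 2.12e-05 and 0.0248). The ratio differences without it were 0.39 for salm to salr and 0.21 for elB to noc.

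**Figure D3:**
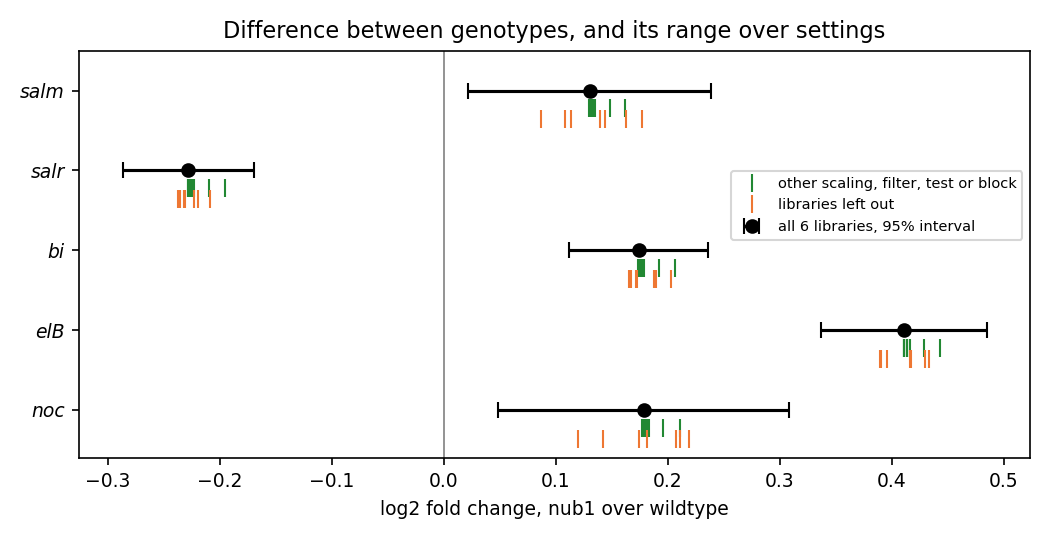
Log2 fold change of each gene in nub1 over wildtype (horizontal axis), with the 95% interval from all 6 libraries (black), the values under other scalings, filters, tests or a replicate block (green) and the values with libraries left out (orange). No value crosses 0; those of salm run from 0.09 to 0.18 and those of salr from -0.24 to -0.20.

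Both pairs are neighbours on the arm that also carries nub, so the surroundings of each were examined. The Spalt genes are 60.7 kb apart, 1.14 and 1.21 Mb from nub, and none of the 8 other genes between them or within 50 kb had enough counts to be tested. The pair elB and noc is 81.3 kb apart, 1.76 and 1.86 Mb from nub on its other side. Of 30 other genes there, 9 were tested, of which 4 rose and 2 fell. Between elB and noc lie 8 genes, of which 2 were tested: the cuticle protein gene Cpr35B rose from 1.97 ± 0.285 to 5.45 ± 0.825 CPM (SD, n = 3; log2 fold change 1.48 ± 0.15; edgeR adjusted p = 6.2e-05), and Pburs, a subunit of the hormone bursicon, was at 0.203 and 0.316 CPM and did not pass (edgeR adjusted p = 0.0782). Of the 3 most abundant flanking genes, the mismatch repair gene spel1 rose (0.21 ± 0.04), the vesicle transport gene Rab14 fell (-0.12 ± 0.03) and l(2)34Fd did not pass (0.03 ± 0.04). Within 3 Mb of nub, 25.0% of tested genes were called higher and 30.0% lower, and on X, where bi lies, 20.4% and 22.9%. Strain differences around the nub[1] allele cannot be told apart from the allele in this design. The RNA of nub and that of pdm2 were both lower in all nub1 libraries, so these losses cannot be told apart either.

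**Figure D4:**
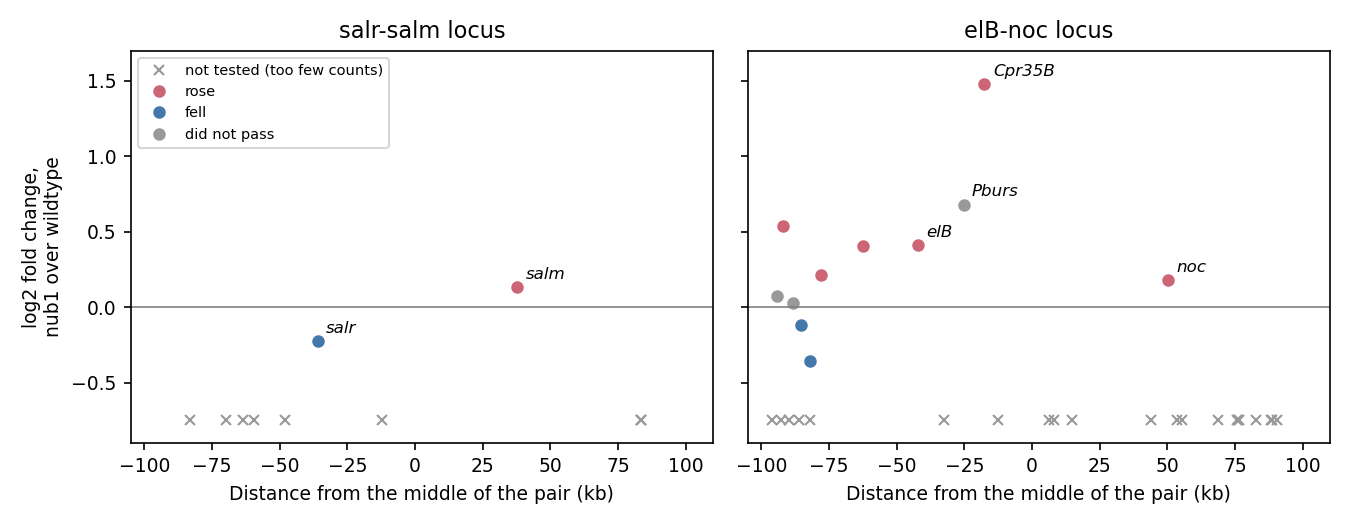
Log2 fold change in nub1 over wildtype (vertical axis) of genes around the salr-salm pair (left) and the elB-noc pair (right) by distance in kb from the middle of each pair (horizontal axis), coloured by test result, with crosses at the bottom for genes with too few counts to test. Around the Spalt pair only salr and salm were tested, while on the elB side of the second pair 4 genes rose and 2 fell counting Cpr35B between the pair.

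The Dpp pathway, which sets salm, salr and bi in the wing, was read from 13 genes, 12 of them tested. Of these 4 rose, 2 fell and 6 did not pass, with a median log2 fold change of 0.01 against 0.00 over all tested genes. Of the ligands, dpp rose from 88.4 ± 1.88 to 93.9 ± 1.47 CPM (SD, n = 3; log2 fold change 0.09 ± 0.03; edgeR adjusted p = 0.0247), and gbb did not pass (-0.05 ± 0.03). Leaving out wildtype replicate 2, wildtype replicate 3, nub1 replicate 1 or nub1 replicate 3 ended the dpp call (adjusted p with edgeR of 0.0719, 0.0909, 0.0755 and 0.0590). Of the receptors, put, the type II receptor gene, fell from 172 to 146 CPM (-0.23 ± 0.02), the type I receptor gene tkv rose (0.12 ± 0.04; edgeR adjusted p = 0.0410) and sax did not pass (0.03 ± 0.02). For tkv the call ended without wildtype replicate 2, wildtype replicate 3, nub1 replicate 1 or nub1 replicate 2 (adjusted p with edgeR of 0.114, 0.125, 0.134 and 0.110). In each of the 3 cases that ended both, 2 genes of the list rose.

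Downstream of the receptors, brk, the repressor of salm, salr and bi, rose from 113 ± 1.91 to 131 ± 3.25 CPM (SD, n = 3; log2 fold change 0.21 ± 0.03; edgeR adjusted p = 0.000402). The gene of its own repressor Schnurri, shn, rose as well (0.21 ± 0.04), and the Smad gene Mad (-0.01 ± 0.03) and the feedback inhibitor gene Dad (-0.06 ± 0.03) did not pass. Of the extracellular modifiers, the glypican gene dlp fell (-0.14 ± 0.04), while the glypican gene dally (0.07 ± 0.03) and magu, which encodes the Dpp feedback factor Pentagone, (-0.04 ± 0.03) did not pass. For dally that depended on the setting: it passed with library size only, upper quartile scaling, a replicate block and without wildtype replicate 1 (adjusted p with edgeR of 0.0226, 0.0208, 0.0281 and 0.0326). The Smad gene Med is not analysed here.

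Genes that the Spalt or Optomotor-blind proteins are known to act on in the wing changed in both directions. Of 9 tested, 5 rose, 3 fell and 1 did not pass, with a median log2 fold change of 0.23 against 0.00 over all tested genes. The vein genes knrl and kni, which are turned on at the border of the Spalt domain where the second vein forms, fell from 48.6 ± 2.26 to 32.7 ± 2.13 CPM and from 40.2 ± 2.24 to 28.2 ± 2.30 CPM (SD, n = 3; log2 fold changes -0.57 ± 0.05 and -0.51 ± 0.06). The homeobox gene Optix, which Spalt proteins keep out of the central wing, fell from 19.0 ± 0.694 to 2.78 ± 0.397 CPM (-2.78 ± 0.09; edgeR adjusted p = 8.33e-08). The leucine-rich repeat receptor genes trn and caps, which act in the affinity of cells of the Spalt domain, rose from 208 to 324 CPM and from 133 to 164 CPM (0.64 ± 0.03 and 0.31 ± 0.03). The Iroquois genes caup and mirr rose (0.28 ± 0.03 and 0.23 ± 0.04), and their neighbour ara, at 138 CPM in both groups, did not pass. The fifth-vein gene ab rose (0.35 ± 0.08; edgeR adjusted p = 0.0145), a call that was lost without wildtype replicate 1 or 2 or with no filter on low counts (edgeR adjusted p = 0.0642, 0.0526 and 0.0508).

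Other transcription factors of the pouch were lower: of 8 tested, 0 rose, 7 fell and 1 did not pass, with a median log2 fold change of -0.996. The largest falls were those of kn, nab, dve and bs (-3.38, -2.07, -1.80 and -1.07), followed by Dll, rn and vg (-0.92, -0.37 and -0.27), while sd did not pass (-0.06 ± 0.03). Counts of all 8 together were 1638 to 1667 CPM in the wildtype and 1135 to 1213 CPM in the nub1 libraries. Among the 5 genes 4 rose and 1 fell, with a median of 0.17, the value of bi. Both lists were chosen with earlier results of these data known, so their counts are a description only. The difference between them was not tested.

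The other genes of the T-box family, to which bi belongs, went the opposite way to bi where they changed. Of 7 such genes 5 were tested, of which 0 rose, 4 fell and 1 did not pass. The Dorsocross genes Doc1, Doc2 and Doc3, which act at the wing hinge, fell (log2 fold changes -1.83, -1.65 and -0.56), and mid, a midline factor gene, fell from 12.5 ± 1.28 to 8.32 ± 0.854 CPM (SD, n = 3; edgeR adjusted p = 0.00138). Its relative H15 was at 0.333 and 0.219 CPM and did not pass. The gene org-1 had too few counts to test, and byn had no count in any library.

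Genes of the body wall and hinge, the territory that Elbow B and No ocelli help to separate from the appendage, rose in part. Of 6 tested, 3 rose, 0 fell and 3 did not pass, with a median log2 fold change of 0.13. Over all tested genes, 24.4% rose and 23.9% fell. The notum gene tup rose from 39.0 ± 0.730 to 52.3 ± 1.29 CPM (SD, n = 3; 0.42 ± 0.03), tsh, a trunk factor gene, from 353 to 404 CPM (0.20 ± 0.02) and ush, a cofactor gene of the dorsal notum, from 77.1 to 89.8 CPM (0.22 ± 0.04). The hinge and body wall gene hth, at 1320 and 1338 CPM, did not pass, nor did pnr and eyg (0.06 ± 0.04 and 0.02 ± 0.04). Without nub1 replicate 3, pnr passed as higher (edgeR adjusted p = 0.0345). Against a fold of 1.2 (glmTreat), tup alone of the 6 was called. The corepressor gene gro, whose product binds both Elbow B and No ocelli, was at 441 ± 3.56 and 453 ± 9.14 CPM (SD, n = 3) and CtBP at 1086 ± 5.12 and 1046 ± 12.2 CPM, and neither passed (log2 fold changes 0.04 ± 0.03 and -0.05 ± 0.03).

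**Figure D5:**
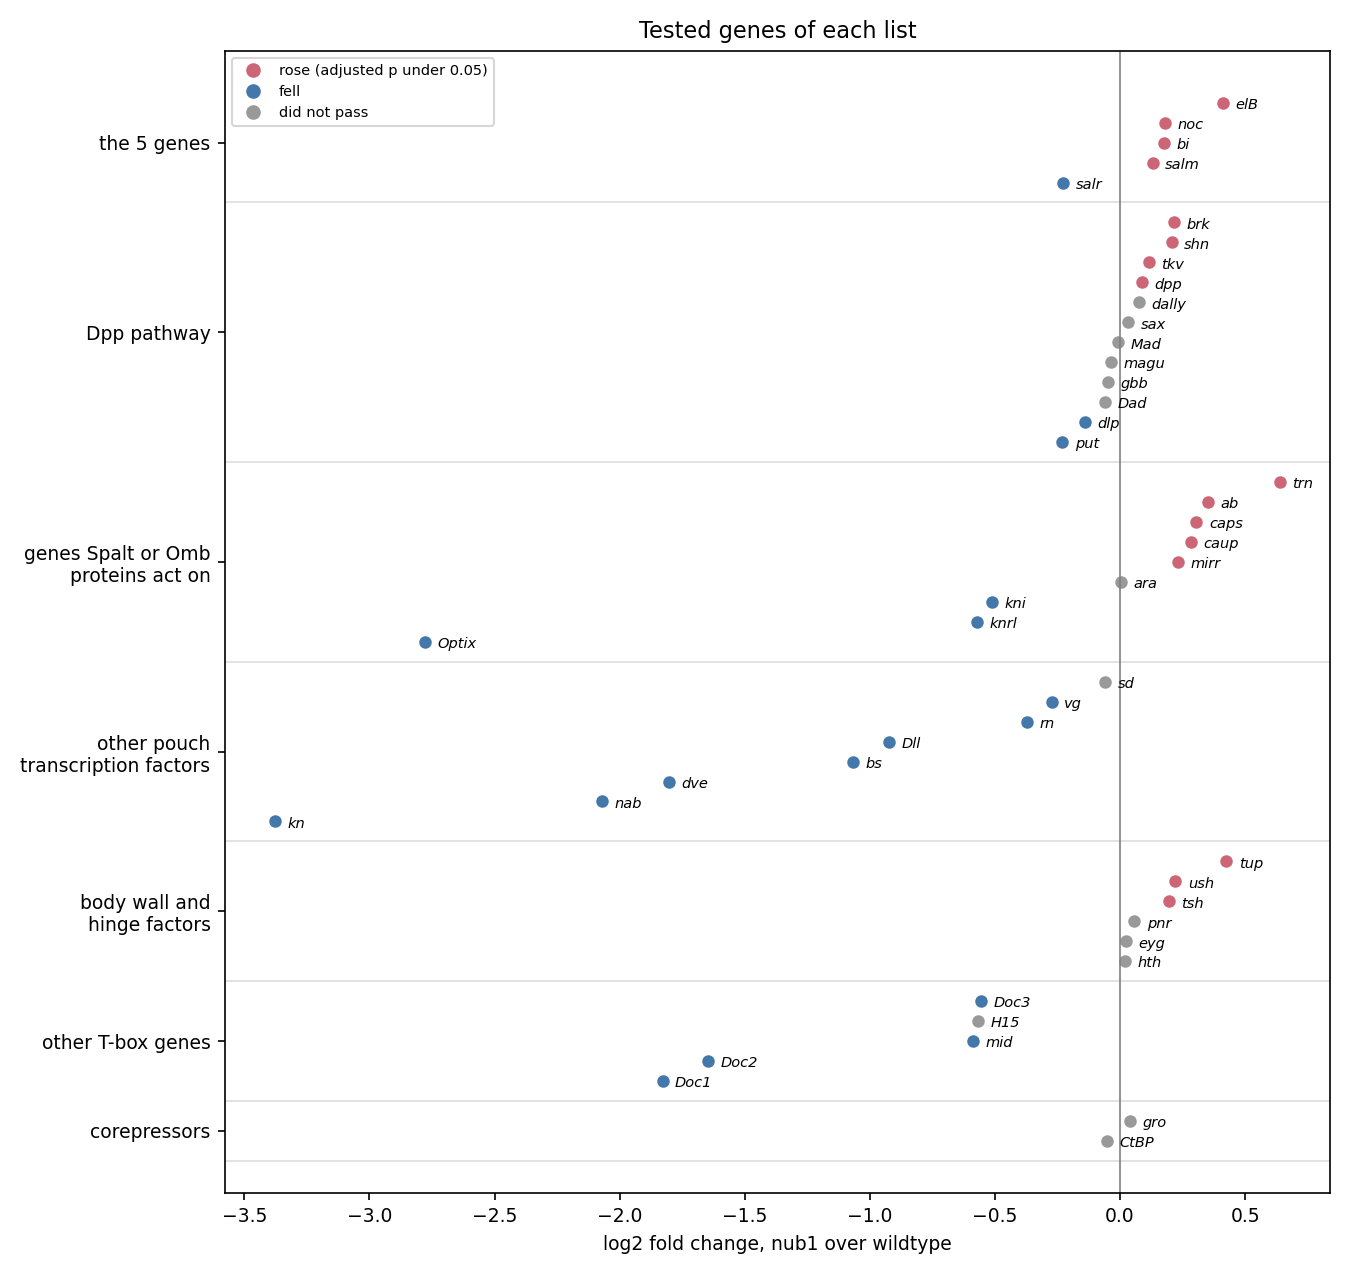
Log2 fold change in nub1 over wildtype (horizontal axis) of the 5 genes and of each tested gene of the lists described in the text, coloured by whether it rose, fell or did not pass the edgeR test. The 5 genes lie between -0.23 and 0.41, while 7 of 8 other pouch factors lie at -0.27 or lower. Genes and lists were chosen with earlier results of these data known.

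Some of the 5 genes are also active outside the pouch: salm, elB and noc act in the tracheal branches, which are attached to the disc. Of 6 tracheal markers 3 rose (verm, serp and Gasp, by 0.68, 0.52 and 0.53), 2 fell (trh and pio, at -0.49 and -0.70) and btl did not pass (0.18 ± 0.08). For btl that depended on the setting: it passed with library size only, a replicate block and without nub1 replicate 3 (edgeR adjusted p = 0.0426, 0.0174 and 0.0127). Without wildtype replicate 1 or 2 only trh fell (edgeR adjusted p = 0.0633 and 0.0547 for pio). Summed over the 6, they held 1681 to 1828 CPM in wildtype and 1836 to 2012 CPM in nub1 libraries. Most of this sum came from pio, verm, serp and Gasp. Whether these genes were made by the trachea alone in these samples was not tested, so the sum is not a measure of tracheal material. In group means trh went from 83.8 to 59.6 CPM, and btl was at 14.3 and 16.1 CPM. The 6 myoblast markers held 282 to 294 CPM in wildtype and 310 to 354 CPM in nub1 libraries, with htl, stumps and twi rising and Him falling, the latter not without wildtype replicate 1 or 2 or with no filter on low counts (edgeR adjusted p = 0.0692, 0.0580 and 0.0571). The 5 haemocyte markers held 38.3 to 72.6 CPM in wildtype and 61.6 to 66.1 CPM in nub1 libraries, where 1 rose (NimC1) and 2 fell (eater and srp). Without wildtype replicate 1 or 2 a second haemocyte marker, Hml, rose too, as it did with DESeq2 and limma-voom (adjusted p = 0.0112 and 0.00843). Without any 1 of the nub1 libraries, or with no filter on low counts (edgeR adjusted p = 0.0628 for eater), only srp fell. The 5 eye disc markers held 49.98 to 57.1 CPM in wildtype and 32.7 to 36.7 CPM in nub1 libraries, nearly all of it from eya and so, which both fell, and the defining marker gl was at 0. The part of these cells in the changes of the 5 genes was not tested.

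Genes with the profile most like each of the 5 were found from log2 CPM centred on each gene's mean over the 6 libraries, by the root mean square difference from 6795 other genes of at least 5 CPM. For salm these were ss, tkv and ave, with differences of 0.0188, 0.0203 and 0.0241 against a median of 0.116 for all genes. For salr they were CG4896, AP-1-2beta and Myd88 (0.00756, 0.0132 and 0.0139), for bi eIF4E1, Smyd4-1 and Gprk2 (0.0137, 0.0141 and 0.0156), and for elB CG31038, Cep164 and Gmap (0.0229, 0.0233 and 0.0253). For noc they were Vhl, Dlip2 and CG3009 (0.0215, 0.0297 and 0.0350), and salm came in place 5 with 0.0359. Both noc and salm were highest in replicate 1 of each group. The profile of salr was 0.184 from that of its paralog salm, farther than the median gene (0.132), and elB was 0.124 from noc, nearer than the median gene from elB (0.217) or from noc (0.134).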

How the data were processed

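The deposited values are raw read counts per gene for 6 RNA libraries. Per the submitters' processing notes, the build was dm6 and the tools were HISAT2, featureCounts, bcl2fastq, deepTools and Bowtie2, their roles and versions unstated. Strand setting, annotation release and treatment of multi-mapping reads were not given in the sources used here. Per the labels' protocols, a directional RNA kit was used. The ATAC-seq and ChIP-seq samples are not analysed here.

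Symbols matched 17710 of 17807 gene IDs, and positions came from RefSeq's Release 6 (dm6). Genes passing filterByExpr (9186) were tested with edgeR 4.0.16 (R 4.3.3; quasi-likelihood, robust) after TMM scaling, genotype being the only term. The SE is the log2 fold change over the square root of F. Ratios within libraries used 0.5 added counts. On simulated counts for this comparison (9098 genes tested), the test recovered 30 of 50 genes with 1.2-fold and 50 of 50 with 1.5-fold changes, and 2.7% of calls were unchanged genes. The simulation gave every gene the same dispersion and changed far fewer genes than were called in the data. Its shares need not hold for these libraries.

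Named are the 5 genes, their list partners, the 3 nearest profiles and genes within 50 kb of either pair. Members and lists were chosen with earlier results of these data known. Alternatives were other scalings, filters, tests (limma 3.58.1, DESeq2 1.42.0), a replicate block and leaving out libraries. All replicate pairs differed by more than sampling noise. The counts of the 5 genes were 6403 to 24499 per library.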

Additional observations from a re-analysis of the deposited data

How the results depend on the processing

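No alternative reversed any of the 5 genes or the within-library ratios, and elB was called under all 16 alternatives (log2 fold change 0.39 to 0.44). Against a fold of 1.2 (glmTreat), salm (0.13), salr (-0.23), bi (0.17) and noc (0.18) were not called, and 875 genes were higher and 721 lower. This test asks for a larger change. It called 0 of the Dpp pathway genes. Of the Spalt or Optomotor-blind list it called trn higher and knrl, kni and Optix lower. Of the body wall and hinge list it called tup alone, higher, and among the other pouch factors it did not call vg. The salm call was also lost with median-of-ratios scaling (0.13), the stricter filter (0.13) and limma-voom (0.13); the cause was not tested. With 1 library left out, log2 fold changes were 0.0871 to 0.177 for salm and 0.119 to 0.219 for noc, with the lost calls given above. Salr and bi kept their calls under all alternatives but glmTreat. Leaving out both libraries numbered 3, chosen after seeing the data, kept all 5 calls (edgeR adjusted p = 0.0485 for salm) but not that of dpp (0.131). With a replicate block all 5 calls held (edgeR adjusted p = 0.00139 for salm), with 2451 genes higher and 2437 lower. Deviations of same-numbered libraries correlated at 0.0426, 0.0346 and 0.2477, and those of differently numbered libraries at -0.1930 to 0.1472. Whether the numbers pair the libraries is therefore not known. Changes that did not pass turned sign for Mad with library size only (0.0253), upper quartile scaling (0.0108) and without both libraries numbered 3 (0.0026), and for l(2)34Fd without the latter (-0.0051). With 1 library left out, Mad ran from -0.0222 to 0.0104, ara from -0.0336 to 0.0426, hth from -0.0140 to 0.0609, eyg from -0.0150 to 0.0587, Pxn from -0.347 to 0.152 and l(2)34Fd from -0.0044 to 0.0689. The effect of depth was not tested.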
